A study of Homo sapiens with 24 samples.

Results

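HepG2 cells, an established human liver cancer line, in which IGF2BP1, IGF2BP2 or IGF2BP3 had been knocked down were compared as a pooled arm with cells given the control siRNA (siControl). All 24 libraries of the series entered the comparison, 18 from the knockdowns and 6 from siControl, and the time of actinomycin D treatment was kept as a block. The libraries form 12 groups of 2 (siControl, siIGF2BP1, siIGF2BP2 and siIGF2BP3, each at 0, 3 and 6 h of actinomycin D, which blocks transcription), so every cell culture had been transfected and each time point holds all 4 siRNAs. A gene was counted as shifted when the pooled edgeR test gave an adjusted p under 0.05 and its log2 difference to siControl at the same time had the same sign in all 9 knockdown and time groups. By this rule 1673 of the 13136 genes tested were shifted, 932 of them higher and 741 lower in the knockdowns. The 9 differences share the 3 siControl groups, so they are not independent of each other. A non-targeting siRNA from a different supplier than the 3 targeting siRNAs served as the control, and a shift shared by the 3 knockdowns cannot be told apart from an effect of that control siRNA.

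IGF2BP1, IGF2BP2 and IGF2BP3 are related RNA-binding proteins that are abundant in the embryo. IGF2BP1 and IGF2BP3 are low in most adult organs and expressed again in many cancers, whereas IGF2BP2 is found in many adult tissues. They bind mRNA through KH and RRM domains, recognize methylated nucleotides such as m6A, and are known for changing the stability, localization and translation of the transcripts that they hold. Because the family members share a domain structure and many target transcripts, transcripts that move the same way after each knockdown are of interest, whereas those that move after a single knockdown are not described here unless they also passed the rule above.

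Between 31843248 and 74252042 reads per library fell in genes, and replicate libraries correlated with r of 0.9968 to 0.9984 across genes on the log2 CPM scale. Levels are given as CPM, the read count of a gene relative to the reads of its library, after TMM scaling, which assumes that most transcripts do not change. All 19 hepatocyte markers of a list for HepG2 passed the filter on low counts (2 or more libraries with a CPM of 1 or above), with a summed mean level of 93541.8 CPM in siControl and 90389.1 CPM in the knockdowns. By contrast 2 of 12 fibroblast, 3 of 10 endothelial and 2 of 12 leukocyte markers passed it. Their summed mean levels in siControl were 45.6, 9.84 and 1586 CPM. Nearly all of the leukocyte sum, 1176 CPM in the knockdowns, was LYZ, which ran over 1065 to 2149 CPM in siControl and was shifted lower. Libraries also received ERCC spike-in RNA in proportion to total RNA. Gene reads per ERCC read were 0.11 log2 higher in the knockdowns (exact permutation test within time points, two-sided, p = 0.00679), a value that ranged from 0.08 to 0.15 without single libraries and was no longer past 0.05 without siControl_0h replicate 2 (0.08, exact permutation p = 0.0625). Scaled to ERCC, the median difference of all genes was 0.13 log2, so the directions below are relative to the bulk of transcripts. On that scale all 932 shifted higher genes kept their call, while 113 of the 741 shifted lower genes did and 557 kept their sign.

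The siRNA targets were examined first. IGF2BP1 mRNA ranged over 620, 716 and 737 CPM (lowest, median, highest) in siControl and over 113, 120 and 134 CPM in siIGF2BP1. IGF2BP2 mRNA lay at 169, 209 and 233 CPM in siControl and at 43.4, 45.1 and 51.1 CPM in siIGF2BP2, and IGF2BP3 mRNA at 98.9, 121 and 142 CPM in siControl and at 33.1, 34.3 and 36.0 CPM in siIGF2BP3. Each target was therefore low in its own knockdown at all times and overlapped with siControl or lay above it in the other two. On the log2 scale the own-target difference was -2.24, -2.60 and -2.65 for IGF2BP1, -1.93, -2.26 and -2.17 for IGF2BP2, and -1.49, -1.85 and -2.02 for IGF2BP3 at 0, 3 and 6 h. None of the 3 passed the pooled test, in which 12 of the 18 knockdown libraries keep the transcript.

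In the pooled test 2170 of 13136 genes were called (16.5%), 1190 higher (9.06%) and 980 lower (7.46%). Genes that were also shifted the same way in all 9 groups made up 7.1% of the tested genes on the higher side and 5.64% on the lower side. These shares are the background for every count of shifted list members below. Most shifts were small. The median pooled difference was 0.19 log2 among the higher genes (quartiles 0.14 and 0.29) and -0.19 among the lower genes (quartiles -0.28 and -0.13). A difference of at least 0.5 log2 was reached by 71 higher and 39 lower genes, and of at least 1 log2 by 6 higher and 0 lower genes. For 351 of the higher and 246 of the lower genes the knockdown libraries lay clear of the siControl libraries at each of the 3 times. Over all tested genes 351 (2.67%) and 250 (1.9%) did so. Such separation largely entails the shared sign that the rule asks for, so these shares are not an independent background. At the margin of the rule, PHLDB2 was inside with 0.12 log2 (edgeR adjusted p = 0.0498) and FOXP4 outside with 0.10 log2 (0.0505), while PDIA5 was inside with -0.08 (0.0497) and SKP1 outside with -0.07 (0.0505). Protein-coding genes supplied 906 of the higher and 693 of the lower genes, and lncRNAs, 7.70% of the tested genes, supplied 8 and 39. The median mean level of the shifted genes was 41.8 CPM (higher) and 43.2 CPM (lower) against 19.1 CPM for all tested genes. The published methods describe transfected plates that were each split into 3 before actinomycin D. Libraries of a condition taken at different times may therefore share a transfected plate, though the labels do not tie them, and the pooled test takes them as independent. When they were added up over the 3 times, leaving 2 siControl against 6 knockdown sums, 121 genes were called higher and 38 lower.

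Most of the largest rises carry a short sequence. The choice of genes did not use it, but the sequence was picked from the higher genes, which include these rises. Its counts among them are therefore a description. The 8-letter word ATTACAAA (the octamer) ranked 1 of 35510 words by its density in the 3′ untranslated regions (3′ UTRs) of the higher genes relative to all tested genes, and 9 of the 12 largest rises (here and below among shifted genes with a mean of 5 CPM or above) carried it in the 3′ UTR or in the coding sequence. Of the 12 largest falls, 10 have an annotated 3′ UTR and 0 carried it. One such site in each of these 9 transcripts is printed here, sense strand 5′ to 3′, with the octamer in capitals and 8 bases on either side, as read from GRCh38 (hg38) at the canonical transcript of GENCODE 44.
SMIM15: attcgccgATTACAAAgacaccat
TDRD7: atcgccagATTACAAAtgcagact
DSC2: taaaaaaaATTACAAAccaagaat
CSGALNACT2: tctgaaatATTACAAAtttcaaat
VPS4B: attaaaaaATTACAAAtgatagaa
TBPL1: acattctaATTACAAAtgtagtct
GNPNAT1: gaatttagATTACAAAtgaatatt
CLDN1: agtatggtATTACAAAacaaacaa
CAMSAP2: tggttaagATTACAAAttatgtgt

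The site shown for SMIM15 lies at chr5:61159086-61159109 (minus strand, 3′ UTR), that for DSC2 at chr18:31067947-31067970 (minus strand, 3′ UTR) and that for CLDN1 at chr3:190308150-190308173 (minus strand, 3′ UTR). The CSGALNACT2 site is at chr10:43184894-43184917 (plus strand, 3′ UTR), the VPS4B site at chr18:63390525-63390548 (minus strand, 3′ UTR), the GNPNAT1 site at chr14:52778109-52778132 (minus strand, 3′ UTR) and the CAMSAP2 site at chr1:200858383-200858406 (plus strand, 3′ UTR). In TDRD7 and TBPL1 the octamer falls in the coding sequence, at chr9:97482934-97482957 and chr6:133980154-133980177, both on the plus strand. SMIM15 and DSC2 hold 2 copies in the 3′ UTR, CLDN1 holds 3, and CAMSAP2 has a further copy in its coding sequence. Of the other 3 large rises, C19orf12 holds the first 7 letters (ATTACAA), DESI2 the last 7 (TTACAAA) and CFDP1 the inner 6 (TTACAA) in the 3′ UTR.

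CFDP1, a chromatin-associated protein, showed the largest rise. Its level ran over 25, 32.5 and 37.8 CPM (lowest, median, highest) in siControl and over 66.4, 98.0 and 132 CPM in the knockdowns. The arms did not overlap in any library, and the pooled rise was 1.58 log2 (SE 0.041, edgeR adjusted p = 2.1e-20), or 2.98-fold. It was nearly alike in the 3 knockdowns, for example 1.42, 1.42 and 1.39 log2 at 0 h, and 5.7% of its exon length overlaps a neighbouring gene. SMIM15, a small membrane protein, ran over 3.11, 7.03 and 16 CPM in siControl and 11.2, 22.9 and 37.0 CPM in the knockdowns. Its levels fell with time in actinomycin D, and within each time the arms stayed apart. At 6 h siControl held 3.11 and 3.66 CPM and the knockdowns 11.2 to 13.9 CPM. The pooled rise of SMIM15 was 1.51 log2 (SE 0.084, edgeR adjusted p = 6.1e-13).

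TDRD7, a Tudor-domain protein of RNA granules, lay at 3.57, 7.42 and 13.1 CPM in siControl and 11.8, 16.6 and 21.9 CPM in the knockdowns. The arms were separate at each time, and the pooled rise was 1.13 log2 (SE 0.125, edgeR adjusted p = 2.6e-07). DSC2, a desmosomal cadherin that holds neighbouring cells together, ran over 41.2, 43.8 and 47.7 CPM in siControl and over 85.8, 94.1 and 116 CPM in the knockdowns, a clear separation and a rise of 1.12 log2 (SE 0.062, edgeR adjusted p = 6.1e-13). CLDN1, a tight junction claudin, ran over 68.3, 70.7 and 74.5 CPM in siControl and 93.4, 107 and 143 CPM in the knockdowns, again without overlap, and rose by 0.68 log2 (SE 0.086, edgeR adjusted p = 2.1e-06).

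The remaining 7 of the 12 largest rises cover membrane traffic, sugar metabolism and the cytoskeleton. CSGALNACT2, which starts and extends chondroitin sulfate chains, rose by 0.85 log2 from 8.67 to 9.83 CPM in siControl to 14.3 to 18.8 CPM in the knockdowns. VPS4B, the ATPase that disassembles ESCRT filaments, rose by 0.76 log2, from 18.2 to 21.8 CPM to 30.9 to 38.9 CPM. GNPNAT1, an enzyme on the way to UDP-N-acetylglucosamine, rose by 0.70 log2, from 53.1 to 57.4 CPM to 78.0 to 103 CPM. In these genes no knockdown library reached down to the siControl range. TBPL1, a relative of the TATA-binding protein, rose by 0.74 log2, C19orf12 by 0.74, the peptidase gene DESI2 by 0.71 and CAMSAP2, which protects microtubule minus ends, by 0.67. For these 4 the arms were separate within each time.

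**Figure D1:**
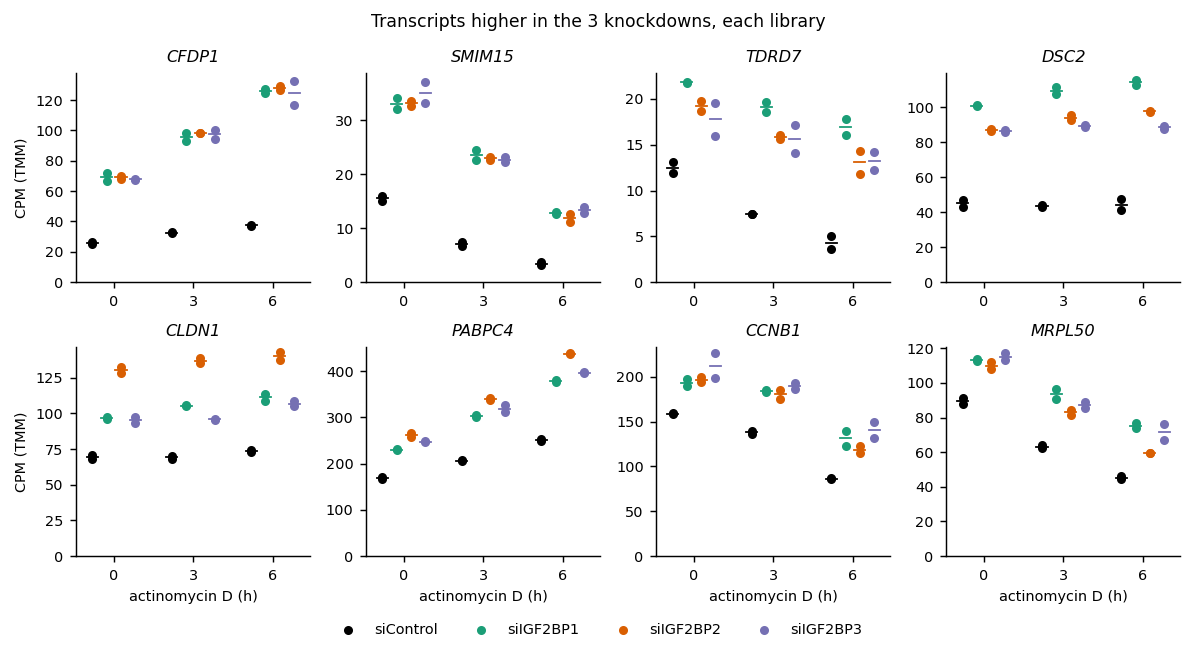
CPM (TMM scaled, linear axes from 0) of 8 transcripts that were higher in the knockdowns, by hours of actinomycin D; each point is a library, the short line is the mean of the 2 libraries of a group, and colours mark the 4 siRNAs. The black siControl points lie below the coloured points at each time in all 8 panels, by a wide margin for CFDP1 (25 to 37.8 against 66.4 to 132 CPM) and a narrow one for CCNB1.

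**Figure D2:**
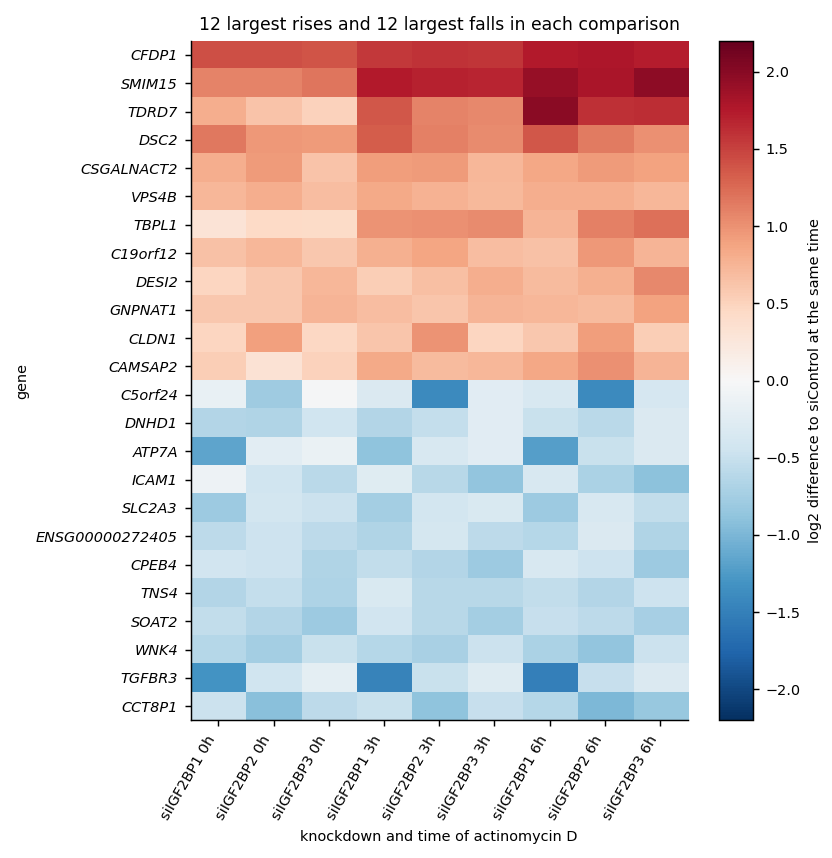
Log2 difference to siControl at the same time (colour, from -2.2 to 2.2) for the 12 largest rises and the 12 largest falls among shifted genes with a mean of 5 CPM or above, with genes as rows and the 9 knockdown and time groups as columns. CFDP1 and SMIM15 are red to a similar depth in the 3 knockdowns, whereas TGFBR3 and ATP7A are much darker blue in the siIGF2BP1 columns and C5orf24 in the siIGF2BP2 columns.

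Among protein-coding genes with a mean of 5 CPM or above, the lowest pooled value of the shifted genes was that of TGFBR3 (betaglycan), a co-receptor for TGF-beta ligands, which ran over 170, 212 and 255 CPM in siControl and 66.5, 147 and 205 CPM in the knockdowns. The arms overlapped over all times and were separate within each. The pooled fall of TGFBR3 was -0.65 log2 (SE 0.182, edgeR adjusted p = 0.015), but it came mostly from siIGF2BP1, with -1.31, -1.47 and -1.50 log2 at 0, 3 and 6 h, against -0.22 to -0.31 in siIGF2BP3. ATP7A, a copper transporter, had the same shape, at -0.88 to -1.22 log2 in siIGF2BP1 and -0.14 to -0.32 log2 in siIGF2BP3, with a pooled value of -0.52. C5orf24 was lowest in siIGF2BP2, at -0.78 to -1.41 log2, with a pooled value of -0.50 (edgeR adjusted p = 0.042), and its call was lost in 9 of the 24 fits without a library.

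Other large falls were more even. WNK4, a kinase that controls ion transporters, ran over 13.1, 14.8 and 16.5 CPM in siControl and 7.82, 9.36 and 11.6 CPM in the knockdowns, without overlap, and fell by 0.63 log2 (SE 0.068, edgeR adjusted p = 1.5e-07). SOAT2, which esterifies cholesterol in hepatocytes, ran over 13.3, 15.7 and 19.4 CPM and 7.46, 10.2 and 13 CPM. Its arms just missed each other, and it fell by 0.62 log2 (SE 0.06, edgeR adjusted p = 3.4e-08). SLC2A3, a glucose transporter, fell by 0.53 log2, from 65.5 to 91.6 CPM in siControl to 37.2 to 73.0 CPM, and the adhesion receptor ICAM1 fell by 0.52, from 69.5 to 86.3 CPM to 36.4 to 67.6 CPM. CPEB4, which regulates cytoplasmic polyadenylation, and TNS4, a focal adhesion protein, each fell by 0.56 log2. The uncharacterized lncRNA ENSG00000272405 fell by 0.53 log2 and DNHD1 by 0.50. The pseudogene CCT8P1 had a value of -0.69 log2, which is uncertain because its reads can be shared with CCT8.

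**Figure D3:**
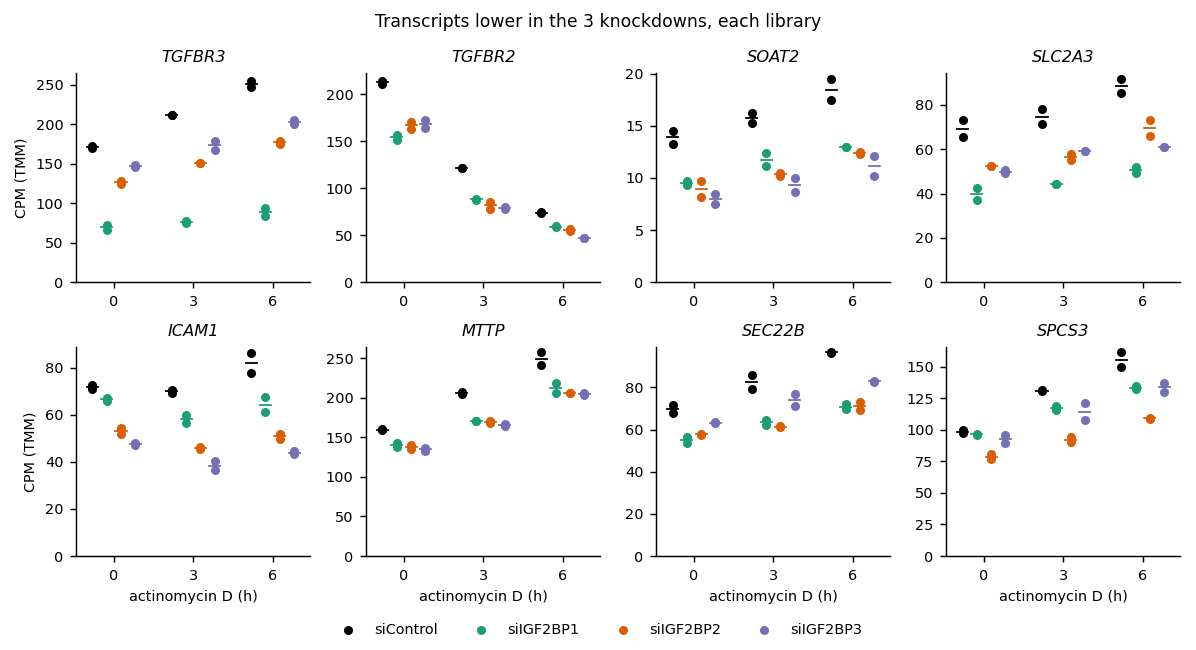
CPM (TMM scaled, linear axes from 0) of 8 transcripts that were lower in the knockdowns, by hours of actinomycin D, with the same points, lines and colours as in the plot of the rises. The black siControl points are the highest at each time, and the green siIGF2BP1 points of TGFBR3 (66.5 to 93.3 CPM) lie far under those of the other knockdowns.

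Functional lists were then read against the background of 7.1% higher and 5.64% lower. For calls on the ERCC scale, the background was 4070 of all 13136 genes higher and 126 lower. For counts of the octamer in the 3′ UTR or coding sequence, the background was 30.4% of higher, 4.91% of lower and 9.48% of all genes. Cell division genes were on the higher side. Of 44 tested members of the mitosis and G2/M list, 15 were shifted higher (34.1%) and 0 lower, with a median of 0.13 log2 against 0.00 for all genes. CCNB1, the mitotic cyclin, rose by 0.45 log2 (SE 0.045, edgeR adjusted p = 4.7e-08). It ran over 85.8, 138 and 159 CPM in siControl and 115, 185 and 226 CPM in the knockdowns, with the arms separate at each time. PLK1, the Polo kinase of mitotic entry, rose by 0.29 log2 and WEE1, the kinase that restrains CDK1, by 0.31 with an edgeR adjusted p of 0.048, a call that was lost in 15 of the 24 fits without a library. Of these 15, 2 carry the octamer in the 3′ UTR or coding sequence, as do 5 of all list members. The DNA replication and G1/S list had 8 of 46 higher and 1 lower. POLE2 (0.27 log2), the clamp loader subunit RFC4 (0.21) and the helicase subunit MCM3 (0.20) rose, and the ribonucleotide reductase subunit RRM2 fell by 0.14. None of the list's members with a 3′ UTR holds the octamer (0).

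Genes of the p53 pathway were higher in 7 of 32 tested members and lower in 1, with a median of 0.10 log2. SESN1, a stress-induced inhibitor of mTORC1, rose by 0.36 log2 (SE 0.065, edgeR adjusted p = 0.00026) from 17.5 to 28.2 CPM in siControl to 22.4 to 37.7 CPM. DDB2, a DNA damage recognition factor, rose by 0.27 log2, and the RNA-binding protein ZMAT3 fell by 0.28. The octamer was present in 4 of the 7 higher members, among them SESN1 and DDB2 in the coding sequence. Of 28 genes of the BCL2 family and apoptosis list 4 were higher, led by the caspase inhibitor XIAP (0.45 log2), and 2 were lower. The integrated stress response had 3 of 25 higher and 0 lower.

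Among genes that act on RNA, the mRNA decay list had 11 of 61 higher (18%) and 1 lower, with a median of 0.05 log2. XRN1, the cytoplasmic 5′ to 3′ exonuclease, rose by 0.43 log2 (SE 0.06, edgeR adjusted p = 9.4e-06) and ran over 15.2, 18.8 and 24.8 CPM in siControl and 20.6, 25.9 and 33.4 CPM in the knockdowns, with separate arms at each time. DDX6, a helicase of processing bodies, rose by 0.18 log2 and its partner PATL1 by 0.16, while the decapping activator DCP1A fell by 0.19. XRN1 and DDX6 are the 2 of the 11 with an octamer. Of the SR, hnRNP and spliceosome list 6 of 51 were higher, including HNRNPLL (0.16) and HNRNPD (0.10), and 0 lower, none of the higher ones with an octamer (0 of 6). Of 26 genes that write, erase or read m6A and m7G, 2 were higher, namely FMR1 (0.53 log2), a translational repressor that binds m6A-marked RNA, and METTL14 (0.18), a subunit of the m6A writer. Both hold the octamer. With 1 further member lower, this list was at the background in each direction.

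Translation factors stayed near the background, with 3 of 46 higher and 2 lower, but held a strong single rise. PABPC4, a cytoplasmic poly(A)-binding protein, ran over 166, 207 and 253 CPM in siControl and 229, 318 and 438 CPM in the knockdowns. The arms were separate at each time, and the rise was 0.62 log2 (SE 0.037, edgeR adjusted p = 2.7e-12). GSPT1, the release factor eRF3a, rose by 0.18 log2 and the scaffold EIF4G3 fell by 0.19. Ribosome components gave different counts by compartment. Mitochondrial ribosomal proteins had 11 of 77 higher and 2 lower, with MRPL50 at 0.47 log2 and MRPL18 at 0.46, both with an octamer, and MRPL17 at -0.18. Ribosome biogenesis had 7 of 51 higher, led by HEATR1 (0.37), and 1 lower, DDX21 (-0.08). Cytosolic ribosomal proteins had 0 of 80 higher and 12 lower (15.0%), each by little, such as RPL9 (-0.12 log2), RPL37 (-0.11) and RPL11 (-0.10), and these counts are uncertain where reads match processed pseudogene copies. On the ERCC scale 7 of the 80 cytosolic ribosomal proteins were called higher and 0 lower, and RPL9, RPL37, RPL11 and DDX21 turned slightly positive, so their direction holds only relative to the other transcripts.

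The nuclear-encoded respiratory chain was lower in 13 of 78 members (16.7%) and higher in 2. The ATP synthase subunits ATP5MG (-0.23 log2) and ATP5MC1 (-0.19) fell and the complex I subunit NDUFB2 (0.23) rose. Of the 13 mitochondrially encoded mRNAs 0 were shifted in either direction. On the ERCC scale 17 members of the respiratory chain list were called higher and 0 lower, where 4070 of all 13136 genes were called higher and 126 lower.

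Transcripts of the secretory pathway were on the lower side. In the list of the unfolded protein response and ER chaperones 9 of 33 members were lower (27.3%) and 1 higher, with a median of -0.10 log2, and 16 were called lower by the pooled test alone. DNAJB9, an ER co-chaperone of BiP, ran over 5.14, 8.39 and 22.4 CPM in siControl and 2.70, 6.56 and 19.1 CPM in the knockdowns. The spread was mostly over time, the arms were separate within each time, and the fall was -0.39 log2 (SE 0.088, edgeR adjusted p = 0.0031). The co-chaperone DNAJB11 fell by 0.17 log2 and the mannosidase-like EDEM3 by 0.14, while HERPUD1, a component of ER-associated degradation, rose by 0.12. ER translocation and ER to Golgi transport had 12 of 62 lower (19.4%) and 2 higher. The SNARE protein SEC22B fell by 0.31 log2 (SE 0.046, edgeR adjusted p = 1.8e-05), from 68 to 96.9 CPM to 53.7 to 83.1 CPM, the KDEL receptor KDELR3 by 0.27 and the signal peptidase subunit SPCS3 by 0.25. The COPII coat subunit SEC24A rose by 0.21 and holds the octamer. The octamer was in 0 of the 9 and 0 of the 12 lower members. Only 4.91% of all lower genes hold it, so these counts do not set the lists apart. On the ERCC scale these lists had 3 higher and 1 lower, and 18 higher and 1 lower, so the falls are relative to other transcripts.

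Plasma proteins made by hepatocytes moved in both directions. Of 25 carrier and acute phase proteins 4 were higher and 6 lower. HAMP, the iron-regulating hormone hepcidin, rose by 0.51 log2, the haem-binding hemopexin HPX by 0.37 (SE 0.058, edgeR adjusted p = 4.5e-05) and the acute phase glycoprotein ORM1 by 0.30, whereas fetuin-A (AHSG) fell by 0.25, transthyretin (TTR) by 0.20 and alpha-2-macroglobulin (A2M) by 0.16. HAMP was close to the filter on low counts at 6 h, where siControl (1.14 and 0.63 CPM) and the knockdowns (0.84 to 1.53 CPM) overlapped. Of 35 coagulation and complement genes 3 were higher, including kininogen KNG1 (0.33) and the fibrinogen chain FGB (0.20), and 6 were lower, including tissue factor pathway inhibitor TFPI (-0.29), factor XI F11 (-0.27) and plasminogen PLG (-0.24). Of the 6 lower coagulation and complement genes 2 hold the octamer, among them TFPI in its 3′ UTR, and of the 3 higher ones 0 do. Lipid transport had 0 of 20 higher and 3 lower. APOM, an HDL apolipoprotein, fell by 0.36 log2. MTTP, which loads lipid on to apolipoprotein B, ran over 159, 206 and 258 CPM in siControl and 132, 169 and 218 CPM in the knockdowns, separate within each time, and fell by 0.26 (SE 0.021, edgeR adjusted p = 1.7e-09), and APOB fell by 0.12 with overlapping arms at each time. Cholesterol synthesis had 0 of 24 higher and 2 lower, with the squalene synthase FDFT1 at -0.12. On the ERCC scale the calls were 8 higher and 1 lower for carrier and acute phase proteins, 7 and 2 for coagulation and complement, 3 and 2 for lipid transport, and 5 and 0 for cholesterol synthesis.

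Hepatocyte transcription factors had 2 of 30 higher, RXRA (0.22) and CEBPA (0.19), and 1 lower, the nuclear receptor ESRRA (-0.43 log2, SE 0.067, edgeR adjusted p = 3.9e-05). Fatty acid oxidation had 1 of 23 higher, its regulator PPARA (0.22), and 0 lower. Of 38 genes of amino acid, urea and one-carbon metabolism 3 were higher, led by the urea cycle enzyme ARG1 (0.61), and 2 lower. ARG1 lay at only 3.98 to 5.19 CPM in siControl. At 6 h siIGF2BP1 (5.16 and 8.16 CPM) overlapped with siControl (4.99 and 5.19 CPM), while siIGF2BP3 held 11.7 and 8.27 CPM. In glycolysis 3 of 28 were lower, among them the glucose transporters SLC2A3 (above) and SLC2A1 (-0.39), and 1 higher. SLC2A1 was lowest in siIGF2BP1, at 95.5 to 115 CPM, against 139 to 164 CPM in the other 2 knockdowns and 170 to 188 CPM in siControl. Of 219 solute carriers 12 were higher and 22 lower. The nucleoside transporter SLC29A3 rose by 0.54 (with 11.6% of its exon length shared with a neighbour), and the dicarboxylate transporter SLC13A3 fell by 0.49. In the list of NRF2, metallothionein, iron and selenoprotein genes 9 of 42 were higher, among them the iron regulatory protein IREB2 (0.26), and 4 lower, among them SELENOT (-0.31) and SELENOP (-0.24).

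At the cell surface, junction genes had 4 of 42 higher and 8 lower (19%). DSC2, CLDN1 and the collagen-binding integrin ITGA1 (0.26 log2) rose and each carries the octamer, while the desmosomal genes PERP (-0.22) and DSP (-0.15) fell. Of the 8 lower junction genes 2 hold the octamer as well. The extracellular matrix list had 0 of 34 higher and 9 lower (26.5%). The proteoglycan versican (VCAN) fell by 0.34 log2 (SE 0.043, edgeR adjusted p = 1.8e-06), from 20.4 to 28.5 CPM to 15.4 to 24.4 CPM, the collagen crosslinking enzyme LOX by 0.26 and the protease inhibitor TIMP1 by 0.25. None of these 9 holds the octamer (0), which only 4.91% of all lower genes hold. Of the matrix list 25 members were not shifted, and its median was -0.01 log2. On the ERCC scale 11 matrix genes were called higher and 1 lower, and 12 junction genes higher and 0 lower.

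Among signalling genes, the TGF-beta and BMP list had 5 of 36 lower and 4 higher. The type II receptor TGFBR2 ran over 73.0, 122 and 214 CPM in siControl and 46.5, 82.5 and 172 CPM in the knockdowns, falling with time in both arms, which stayed apart within each time. It fell by 0.47 log2 (SE 0.043, edgeR adjusted p = 1.4e-08). The type II BMP receptor BMPR2 fell by 0.32 and the type I receptor TGFBR1, which holds an octamer in its 3′ UTR, rose by 0.22. The Wnt list had 3 of 34 higher, including the receptor FZD4 (0.46) and the transcription factor TCF7 (0.21), and 3 lower, the Wnt inhibitors NOTUM (-0.21) and NKD1 (-0.18) and the R-spondin receptor LGR5 (-0.18). FZD4 was highest in siIGF2BP2 at each time, with 113 and 117 CPM at 0 h. At 0 h it lay at 78.4 and 78.3 CPM in siIGF2BP1, against 76.4 and 72.0 CPM in siControl. Interferon response had 1 of 44 higher and 4 lower, and NF-kB feedback and chemokines 1 of 23 higher and 3 lower. In a list of the MYC network and mRNAs described as IGF2BP clients, 5 of 29 were higher, including the ubiquitin ligase subunit BTRC (0.32) and the actin bundler FSCN1 (0.26), and 3 were lower, including cyclin D1 (CCND1, -0.22) and HMGA2 (-0.20). Of the 5 higher members 3 hold the octamer.

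Among nuclear regulators, Mediator and Integrator had 6 of 48 higher and 0 lower, including MED1 (0.38 log2) and cyclin C (CCNC, 0.26). Chromatin modifiers had 8 of 74 higher and 3 lower. Of 399 ZNF genes, most of which encode KRAB zinc finger repressors, 22 were higher (5.51%) and 2 lower (0.501%), so the higher share lay under the background and the lower share further under it. ZNF678 (0.86 log2) and ZNF714 (0.45) were among those that rose, and 8 of the 22 hold the octamer. ZNF678 was low, at 1.23 to 2.02 CPM in siControl at 3 and 6 h, and its arms overlapped at 6 h.

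**Figure D4:**
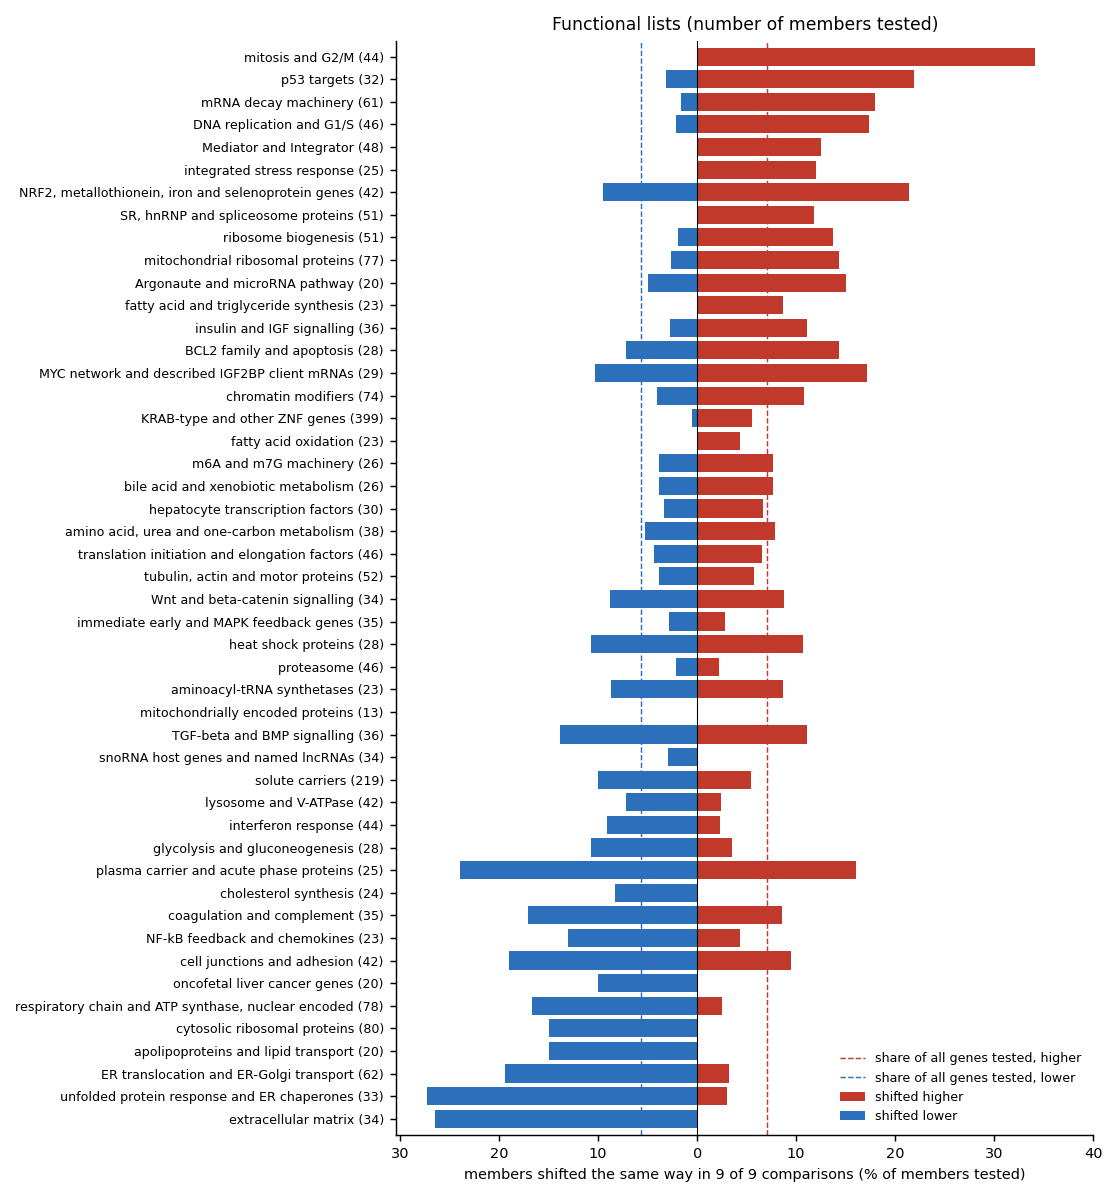
Share of tested members shifted higher (red, to the right) or lower (blue, to the left) in the 48 functional lists, with the number tested in brackets and dashed lines at the shares over all genes (7.1% and 5.64%). Mitosis and G2/M (34.1% higher, 0 lower) and the unfolded protein response and ER chaperones (27.3% lower) lie near the opposite ends.

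Across all shifted genes the octamer was more frequent on the higher side than on the lower side. It was found in the 3′ UTR of 179 of 906 higher genes (19.8%), 23 of 692 lower genes (3.32%) and 708 of all 11358 genes with an annotated 3′ UTR (6.23%). In the coding sequence it was found in 111 (12.3%), 11 (1.59%) and 404 (3.56%). Counting either place, 30.4% of the higher and 4.91% of the lower genes held it. The share grew with the size of the rise, from 148 of 608 genes below 0.25 log2 (24.3%) over 94 of 239 from 0.25 to 0.5 log2 (39.3%) to 33 of 59 at 0.5 log2 or more (55.9%). Its reverse complement TTTGTAAT was at 12%, 13% and 11.9% in the 3′ UTRs of higher, lower and all genes, and the m6A core letters GGAC were at 85.5%, 86.3% and 84.3%. Most 3′ UTRs hold so short a word, so the GGAC share could differ little between these sets. The density of GGAC was 2.26, 2.41 and 2.48 copies per kb in the 3′ UTRs of higher, lower and all genes. The words were searched on the sense strand, with overlapping matches counted. Because the word was found in these same libraries, its shares are a description, and a match is not evidence of a binding site. A higher level of transcripts with the word in the 3 knockdowns cannot be told apart from a lower level in siControl caused by the control siRNA, whose sequence is not given in the sources used here.

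Read from the side of the sequence, genes with the octamer in both regions were shifted higher most often, in 15 of 35 (42.9%), with 0 lower. With the octamer in the 3′ UTR alone 164 of 673 were higher (24.4%), and in the coding sequence alone 96 of 369 (26.0%). With it in neither region 631 of 10281 were higher (6.14%) and 658 lower (6.4%). Among genes with 1, 2 and at least 3 copies in the 3′ UTR 24.1%, 32.8% and 55.6% were higher, the last of only 9 genes. Longer 3′ UTRs hold more words of any kind, so the share was also read within 4 bins of 3′ UTR length. From the shortest bin to the longest, 4 of 18 (22.2%), 22 of 66 (33.3%), 57 of 196 (29.1%) and 96 of 428 (22.4%) genes with the octamer in the 3′ UTR were higher. Of genes whose 3′ UTR holds neither the octamer nor its shorter forms, 5.80%, 5.81%, 5.02% and 4.11% were higher. The median share of A and T in the 3′ UTR was 60.6% in higher, 59.1% in lower and 57.7% in all genes. Roles of length and base composition were not tested. The word is absent from 631 of the 906 higher genes. For the falls, the first-ranked word of 8 letters, GGAGATAT, was in the 3′ UTR of 5.35% of the lower and 2.09% of all genes. Its density in the lower genes was 2.29 times that in all genes, where the ratio of ATTACAAA in the higher genes was 2.99.

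**Figure D5:**
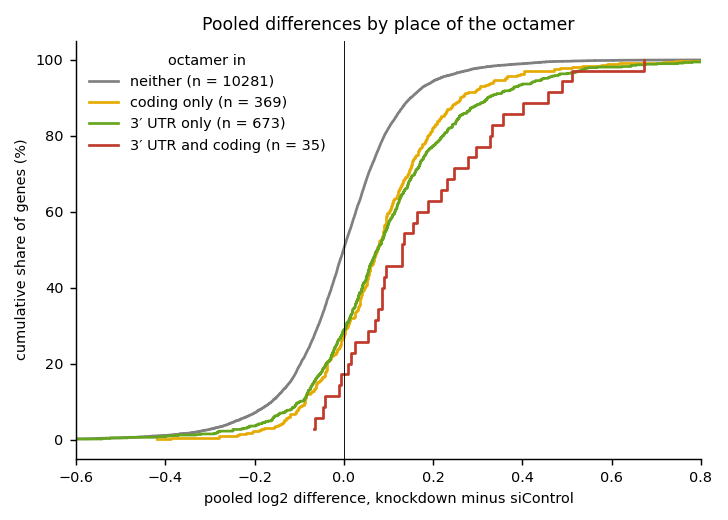
Cumulative share of genes (vertical axis, %) up to each pooled log2 difference (horizontal axis, shown from -0.6 to 0.8), for genes with the octamer in neither region, in the coding sequence, in the 3′ UTR or in both. The curve for neither region crosses the 50% level near 0, and the curves with the octamer lie to its right, furthest for both regions (median 0.13 log2).

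A shared direction did not mean a shared size. Among the 18 knockdown libraries alone, without siControl, 495 of the 932 higher genes (53.1%) and 424 of the 741 lower genes (57.2%) differed between siIGF2BP1, siIGF2BP2 and siIGF2BP3 (edgeR, adjusted p under 0.05), against 52.5% of all tested genes. CFDP1 and SMIM15 were not called in this test (edgeR adjusted p = 0.64 and 0.39). CLDN1 was, with 0.90 to 0.98 log2 over siControl in siIGF2BP2 against 0.45 to 0.60 in the other 2 knockdowns, and DSC2 was highest in siIGF2BP1 (1.17 to 1.37). ICAM1 was lowest in siIGF2BP3, at -0.60, -0.87 and -0.90 log2 at 0, 3 and 6 h, against -0.11, -0.26 and -0.35 in siIGF2BP1.

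Time in actinomycin D changed the pooled shift of few genes past the threshold. The interaction of knockdown and time was called for SMIM15 alone (0.00761% of tested genes, edgeR adjusted p = 0.00724), whose difference grew from 1.12 log2 at 0 h to 1.71 at 3 h and 1.90 at 6 h. That call was lost without siControl_0h replicate 1 (edgeR adjusted p = 0.0578), siControl_0h replicate 2 (0.407) or siControl_6h replicate 2 (0.0685). At an unadjusted p under 0.05 there were 325 genes, 55 of them shifted higher and 8 shifted lower, and DESeq2 called 3. TDRD7 had 0.65, 1.18 and 1.75 log2 at the 3 times. ZNF91 had the opposite order, with 0.53, 0.37 and 0.10 log2. The median difference of the higher genes was 0.16, 0.20 and 0.22 log2 and that of the lower genes -0.15, -0.20 and -0.21 at 0, 3 and 6 h. The sign of these medians at each time is set by the rule that chose the genes.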

How the data were processed

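RNA was measured in 24 libraries of HepG2 cells. According to GEO's labels and the published methods, the authors transfected cells with siRNA, re-seeded them, treated them with actinomycin D, spiked ERCC RNA in by mass of RNA, selected poly(A) RNA, prepared stranded libraries, trimmed reads (Trimmomatic 0.39), aligned them to hg38 (HISAT2 2.1.0) and ran HTSeq with a GENCODE annotation. The files hold the read counts as deposited, with no normalization. The alignment was set for stranded (RF) reads, and the settings of HTSeq for strand, overlap and multi-mapping are not given in the sources used here. The 5 summary rows of HTSeq, 13.55 to 17.06% of each library, and 45 rows for Y copies of pseudoautosomal genes were left out, and 58676 gene rows were used. Symbols were matched for 58207 and not for 469.

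Tests used edgeR 4.0.16 in R 4.3.3 (quasi-likelihood, two-sided, TMM, time and knockdown as terms) on genes whose CPM was 1 or above in 2 or more libraries, with Benjamini-Hochberg adjustment over 13136 genes. A standard error (SE) is the log2 difference divided by the square root of F. Replicate libraries differed by more than sampling noise in every group (chi-square per degree of freedom 3.24 to 8.49). The labels do not say whether they come from separate cultures, so p-values measure the spread between these libraries. The pooled model has no term for the single siRNAs, so its residual spread also holds the differences between the 3 knockdowns. The edgeR tests and the ERCC permutation take libraries of different times as independent, although they may share a transfected plate. The test was also checked on simulated counts. Words were searched with Python 3.11.15 in canonical transcripts of GENCODE 44. The members, lists and words were chosen with earlier results of these data known. Genes were named by a rule: the siRNA targets, the 12 largest rises and falls among shifted genes of mean CPM 5 or above, up to 3 members per functional list and direction, and the 4 with the smallest p by knockdown and by time. Of those, the text names a part. Genes at the margin of the rule for shifted genes are named besides. Alternatives covered scaling (DESeq2 1.42.0 size factors, library size, ERCC), filters, DESeq2, limma 3.58.1 with voom, sums over time, single times and replicates, and leaving out each library or knockdown.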

Additional observations from a re-analysis of the deposited data

Results flagged for a closer look

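The pooled difference of SMIM15 depended on the time in actinomycin D (edgeR adjusted p of the interaction 0.00724), with siControl falling from 15 and 16 CPM at 0 h to 3.11 and 3.66 CPM at 6 h and the knockdowns from 32.1 to 37.0 CPM to 11.2 to 13.9 CPM.

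Genes that fell in all 9 groups but by unequal amounts stood out in the test among the 3 knockdowns. TGFBR3 had the smallest p there (edgeR adjusted p = 6.17e-27). LYZ, which encodes lysozyme, followed (2.66e-20) with -0.60, -0.68 and -0.69 log2 at 0, 3 and 6 h in siIGF2BP2 and -0.17, -0.24 and -0.27 in siIGF2BP3. MAN1A1, a Golgi mannosidase (edgeR adjusted p = 9.02e-20), was also lowest in siIGF2BP2, at -0.40 to -0.49 log2, and hardly moved in siIGF2BP1, at -0.05 to -0.10. ACADSB, a mitochondrial acyl-CoA dehydrogenase (edgeR adjusted p = 1.37e-19), was lowest in siIGF2BP1, at -0.47 to -0.59 log2, against -0.05 to -0.13 in siIGF2BP3. In all, 495 shifted higher and 424 shifted lower genes differed among the knockdowns. Each group holds 2 libraries, so single libraries far from their group were not tested.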

How the results depend on the processing

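The counts of 1190 genes called higher and 980 called lower stayed within 1.5 times under DESeq2 (1457 and 1019), DESeq2 size factors, library-size scaling, no CPM filter and a CPM minimum of 5. ERCC scaling gave 4070 and 126, group means 2315 and 2330, limma voom with a correlation of 0.374 within condition and replicate 521 and 483, and sums over time 121 and 38. Fits at 0, 3 or 6 h alone called 124, 118 and 88 higher and 48, 39 and 42 lower, and replicate 1 or 2 alone 261 or 209 higher and 151 or 119 lower. Without single libraries the ranges were 909 to 1200 and 676 to 978. For genes shifted in all 9 groups, ERCC scaling gave 2489 and 65, replicate 1 alone 260 and 151, and replicate 2 alone 209 and 119. Without siIGF2BP1, siIGF2BP2 or siIGF2BP3 only the remaining groups had to agree, a looser rule. It gave 1343, 1327 and 1240 higher and 1234, 1108 and 991 lower genes. Without single libraries the counts over all 9 groups were 768 to 937 and 570 to 754. Then 6521 to 6901 genes differed among the knockdowns, 0 to 1 by time, and gene reads per ERCC read differed by 0.081 to 0.15. By time, ERCC scaling called 2 and DESeq2 3. The cause was not tested.

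Signs turned for IGF2BP1 (0.087), IGF2BP2 (0.072) and IGF2BP3 (0.11) without their own knockdown, and under ERCC scaling for RPL9 (0.0086), RPL37 (0.016), RPL11 (0.026) and DDX21 (0.042). Of the 24 fits without a library, WEE1 lost its call in 15, C5orf24 in 9, ACADSB in 5, DDX21 in 4, CEBPA and METTL14 in 3, CCND1 in 2, and APOB, ATP7A, EIF4G3, HERPUD1, MAN1A1 and NKD1 in 1. Replicate numbers showed little pairing over all groups: the deviations of same-numbered libraries correlated at -0.0739 to 0.288 (median 0.00822, 7 of 66 over 0.1). Between times of the same condition they correlated at -0.0316 to 0.243 (median 0.0299, 3 of 12 over 0.1). These values cannot tell whether such libraries share a plate. With the replicate number as a block 1171 genes were called higher and 958 lower. Of 119 called genes checked in each fit, 84 lost the call in the sums over time, 11 under voom and 1 under the block.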
